A study of Rattus norvegicus with 35 samples.

Results

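Antigen presentation in rat mammary tissue was followed through 9 genes of the class I and class II pathways of the major histocompatibility complex (MHC), which in the rat is called RT1. The genes were RT1-Da, RT1-Db1, RT1-Bb and Cd74 of the class II pathway and B2m, Tap1, Tap2, Psmb8 and Psmb9 of the class I pathway. Every probe set annotated to these genes was used, a probe set being a group of short probes on the array whose brightness is summarised as a signal. This gave 13 of the 15866 probe sets tested and 9 of the 10411 genes measured. Total RNA of 24 tumours was set against that of 11 normal mammary glands on RAE230A oligonucleotide arrays, with 1 array for each sample. The tumours were described as frozen and belong to the model induced by N-methyl-N-nitrosourea (NMU), a DNA-alkylating agent, and their titles begin with X. Of the normal glands, 8 have titles beginning with NewN, and the other 3 are titled X27.1N, X28.1N and Young. The labels give no strain, age, carcinogen dose, storage of the normal glands, animal or date. Nothing in them states that the samples came from separate animals, so the p-values reflect only the scatter among these arrays, which may be technical in part.

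Cells display peptides to T cells on MHC molecules. In the class I pathway the proteasome cuts proteins of the cell itself, the Tap1 and Tap2 proteins carry the peptides into the endoplasmic reticulum, and a heavy chain bound to B2m presents them on nearly all cell types. Interferon gamma induces Psmb8 and Psmb9, which replace catalytic subunits of the standard proteasome. In the class II pathway an alpha and a beta chain are held by Cd74, the invariant chain, until the peptide is loaded, and this pathway is used mainly by B cells, macrophages and dendritic cells, although interferon gamma can also switch it on in epithelial cells.

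The array medians lay between 158 and 176 in tumours and between 163 and 172 in normal glands, while the 90th percentile of signal was 491 to 678 in tumours and 639 to 763 in normal glands. The precision of each value is limited by how many arrays there are. Epithelial markers were higher in the tumours for 5 of 7 genes and lower for 0, and all 5 adipocyte markers measured were lower. The tumour X22L had a Krt8 signal of 75.7, below every normal gland. The summed signal of 3 leukocyte markers (Ptprc, Ptprcap and Coro1a, all 3 lower in tumours) was 129 to 1352 in tumours (median 253) and 379 to 6590 in normal glands (median 456). Of 12 macrophage and dendritic cell markers 2 were higher and 7 lower, and their sum was 3808 to 20278 in tumours and 8218 to 16294 in normal glands. Of 12 T and NK cell markers 1 was higher and 4 lower, with sums of 1337 to 2413 in tumours and 1341 to 9326 in normal glands. Both B cell markers measured, Cd79b and Cd37, were lower, with sums of 40.6 to 257 in tumours and 102 to 2410 in normal glands. Signals under the 10th percentile of all values (41.6) were set to that floor. Cd79b lay at this floor in all 24 tumours and in 7 normal glands, and Cd3d, a chain of the T cell receptor complex, in 18 tumours and 8 normal glands.

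The 9 genes did not move together between tumours and normal glands. Psmb8, Psmb9 and Tap1 were higher in the tumours. The class II genes RT1-Db1, RT1-Bb and Cd74 and the transporter subunit Tap2 were lower. Of the 2 probe sets of B2m the dimmer was lower and the brighter was not called. With limma over all probe sets and a Benjamini-Hochberg adjusted p under 0.05, 3 of the 13 probe sets were called higher, 6 lower and 4 not called. Over the whole array 58.2% were called, 33.0% as higher and 25.2% as lower, so a count of members near these shares is not a result about the members. The median log2 change, tumour minus normal, was -0.23 over the 13 probe sets and 0.04 over all probe sets. In 0 of the 13 probe sets did the groups fail to overlap, against 2.33% of all probe sets. Under quantile normalization 3 member probe sets were called higher and 2 lower, against 5312 higher and 3409 lower of all 15866 probe sets. These are bulk tissues, in which fewer cells of a type and less RNA per cell cannot be told apart.

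**Figure D1:**
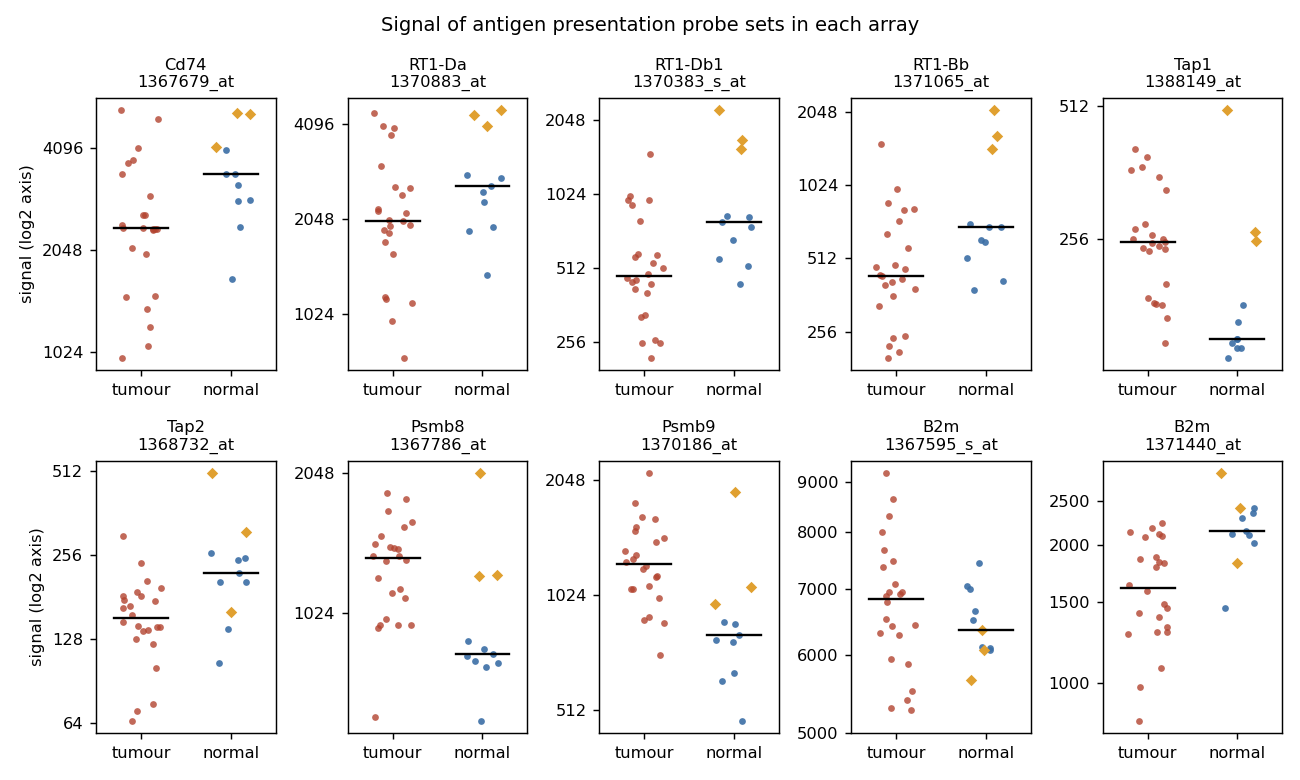
Signal of the 10 member probe sets that lay above the floor on all arrays, on log2 axes, with 1 point for each array, tumours on the left (24) and normal glands on the right (11), and a bar at each group's median. Diamonds mark the normal glands NewN4, NewN6 and X27.1N. The medians of Psmb8, Psmb9 and Tap1 were higher in tumours and those of the class II probe sets lower, and the groups overlap in every panel.

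The class II pathway was read by RT1-Da, the alpha chain of the RT1-D molecule, RT1-Db1, its beta chain, RT1-Bb, the beta chain of the RT1-B molecule, and Cd74. Of these genes RT1-Db1, RT1-Bb and Cd74 fell in the tumours and RT1-Da did not pass the test. Cd74 had signals between 986 (X20) and 5306 (X18) in tumours with a median of 2379, against 1682 (Young) to 5200 (NewN6) in normal glands with a median of 3442. Its log2 change was -0.51 (SE 0.21, limma adjusted p = 0.039), and 18 of 24 tumours lay below the normal median. Of these, 6 lay below all normal glands, the groups overlapped, and X18 had the highest signal of all 35 arrays. The lowest normal gland, Young, lay well below the next lowest, X28.1N at 2394.

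The brighter probe set of RT1-Db1 ranged between 221 (X20) and 1503 (X15) in tumours with a median of 477, against 443 (Young) to 2253 (NewN6) in normal glands with a median of 788. It fell by 0.78 on the log2 scale (SE 0.25, limma adjusted p = 0.00903), and 9 tumours lay below all normal glands. The brighter probe set of RT1-Bb ranged between 200.1 (X29.2) and 1507 (X15) in tumours with a median of 434, against 380.3 (Young) to 2079 (NewN6) in normal glands with a median of 691. It fell by 0.73 (SE 0.27, limma adjusted p = 0.0208), with 7 tumours below all normal glands. In both genes the groups overlapped over most of their range.

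RT1-Da ranged between 746 (X20) and 4412 (X15) in tumours with a median of 2025, against 1365 (Young) to 4511 (NewN6) in normal glands with a median of 2608. Its log2 change was -0.39 (SE 0.22, limma adjusted p = 0.124), with 19 tumours below the normal median. The same arrays tended to lie at the ends for all 4 genes, X20 or X29.2 at the low end of the tumours and X15 or X18 at the high end. Young was the lowest normal gland for all 4, so it alone set the counts of tumours below all normal glands. Leaving Young out must enlarge the falls. The log2 change was then -0.61 for Cd74 (limma adjusted p = 0.0147), -0.88 for RT1-Db1, -0.83 for RT1-Bb and -0.49 for RT1-Da (limma adjusted p = 0.0566). The highest tumour exceeded the lowest by 5.38-fold for Cd74, 5.91-fold for RT1-Da, 6.79-fold for RT1-Db1 and 7.53-fold for RT1-Bb.

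The second probe sets of the beta chain genes were dim. That of RT1-Db1 lay at the floor in 23 tumours and 8 normal glands. Its log2 change of -0.23 (SE 0.09, limma adjusted p = 0.0273) rests on 1 tumour, X26 at 45.9, and 3 normal glands, NewN6 at 111.5, X27.1N at 65.0 and NewN4 at 60.3. It was not called by limma with a floor at the 5th percentile (adjusted p = 0.0534) or the 20th (adjusted p = 0.21), with no floor (adjusted p = 0.0529) or with array weights (-0.09, adjusted p = 0.21). That of RT1-Bb lay at the floor in 14 tumours and all 11 normal glands, so no fold is given, and it was not called (limma adjusted p = 0.19), though it was called higher with a floor at the 5th percentile (0.32, limma adjusted p = 0.00294).

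The normal glands were not uniform, and 3 of them set the upper end of the class II range. X27.1N, NewN4 and NewN6 lay above all 8 other normal glands in 7 of the 10 member probe sets above the floor on all arrays, the exceptions being Tap2 and the pair for B2m. RT1-Db1 had signals of 1574, 1709 and 2253 in these glands, in that order, and reached no more than 836 in the remaining glands. RT1-Bb had signals of 1444, 1634 and 2079 there and reached no more than 708 elsewhere among the normal glands. The B cell receptor gene Cd79b was 1013, 809 and 1111 in the same glands and no higher than 42.9 in the others, and Cd3g, a chain of the T cell receptor complex, was 1077, 894 and 1639. Ciita, the coactivator that switches on class II genes, was 225, 260 and 341 there, against 70.0 to 117 in the others. The 3 glands thus combined high class II signal with high signals of these B and T cell markers. Cd2, another T cell marker, was 316, 311 and 477 there but 362 in X28.1N, so it did not set them apart. For Cd74 the gap was narrow, 4133 in X27.1N against 4058 in NewN8.

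These 3 were the highest normal glands for Cd74, RT1-Da and the brighter RT1-Db1 and RT1-Bb probe sets, so leaving them out must shrink the falls. Without these 3 glands no member of the class II group was called by limma. The log2 change was then -0.31 for Cd74 (adjusted p = 0.271), -0.38 for RT1-Db1 (adjusted p = 0.209), -0.29 for RT1-Bb (adjusted p = 0.369) and -0.13 for RT1-Da (adjusted p = 0.666). With the mean log2 signal of the leukocyte markers as a covariate in the limma fit the changes were -0.06 for Cd74, -0.08 for RT1-Db1, 0.03 for RT1-Bb and 0.13 for RT1-Da, and 0 of these 4 were called. That covariate itself differs between the groups, with a correlation of -0.493 with being a tumour. Under quantile normalization Cd74 (-0.29, adjusted p = 0.241), RT1-Db1 (-0.56, adjusted p = 0.0675) and RT1-Bb (-0.52, adjusted p = 0.104) were not called either.

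**Figure D2:**
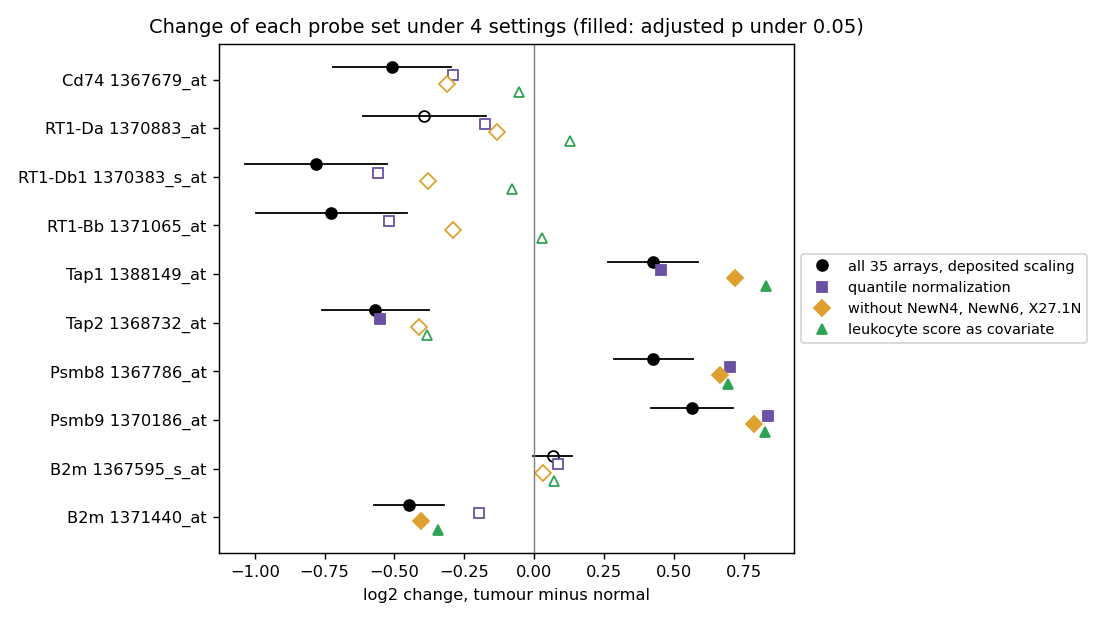
Log2 change, tumour minus normal, of 10 member probe sets under 4 settings of the limma fit, with filled symbols for an adjusted p under 0.05 and bars of 1 SE on the values from all 35 arrays. Psmb8, Psmb9 and Tap1 were called higher under all 4 settings. Of these 4, Cd74, RT1-Db1 and RT1-Bb were called lower only in the fit of all 35 arrays at the deposited scaling with no covariate. Over all alternatives tried, RT1-Db1 and RT1-Bb kept this call under 12 each and Cd74 under 9.

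A wider list of 19 class II pathway genes, of which 15 were measured, held 1 gene that rose, 8 that fell and 6 that were not called, with a median log2 change of -0.51. Over all genes 31.4% were called higher and 27.5% lower, with a median of 0.02. Outside the members, 5 of 11 genes fell, among them the lysosomal proteases Ctsl (-1.09, limma adjusted p = 6.31e-07), Ctss (-0.74), Ctsb (-0.54) and Lgmn (-0.26) and the costimulatory receptor Cd40 (-0.94). Cd80, a ligand that costimulates T cells, was the single riser (0.27, limma adjusted p = 0.0208). It was dim, at 38.9 to 78.7 in tumours and 33.1 to 68.4 in normal glands, with 2 tumours and 2 normal glands at the floor. The other chains did not pass: RT1-Ba, the alpha chain of RT1-B, changed by -0.53 (limma adjusted p = 0.0912), and the peptide exchange factors RT1-DMa and RT1-DMb by -0.06 and -0.12. Among 7 class II regulators measured, Rfx5, a subunit of the complex that binds the X box of class II promoters, rose by 0.21 (limma adjusted p = 0.00775), 3 fell and 3 were not called. Creb1, a transcription factor that takes part in the same complex, had the largest fall (-0.76, limma adjusted p = 9.44e-05), and Ciita changed by -0.18 (limma adjusted p = 0.347).

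Class II promoters carry an X box and a Y box close to the start of transcription. The RefSeq promoters of all 9 members were found (build GRCr8, 250 bases before to 50 after the start), and stretches around matches are shown because these genes varied together across the tumours. Capitals mark matches to the X box core GCAACNGAT and the Y box core CTGATTGG, both searched on either strand, and each line reads 5′ to 3′ along the gene's own strand.
RT1-Da, chr20:4515313-4515390, plus strand: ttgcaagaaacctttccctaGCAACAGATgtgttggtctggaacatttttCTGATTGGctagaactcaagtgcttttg
RT1-Db1, chr20:4560218-4560294, minus strand: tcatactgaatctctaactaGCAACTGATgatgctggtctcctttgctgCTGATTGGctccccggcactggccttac
RT1-Bb, chr20:4604155-4604202, minus strand: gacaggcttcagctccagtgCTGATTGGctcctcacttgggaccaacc
All of these stretches lie upstream of the start. The Y box core was present in 4 of the 9 member promoters, the 3 above and Psmb9, and in 3.5% of 33469 promoters of the same length. The X box core was present in RT1-Da and RT1-Db1 and in 0.394% of all promoters. The Cd74 window held neither. The motifs were chosen after these sequences had been seen, and a match of letters is a description, not a measured site.

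The class I pathway members went in different directions. Psmb8 and Psmb9, the inducible proteasome subunits, and Tap1 rose in the tumours, while Tap2, the partner of Tap1 in the peptide transporter, fell. Psmb9 had signals between 711 (X4) and 2139 (X26) in tumours with a median of 1236, against 480 (Young) to 1906 (NewN6) in normal glands with a median of 805. It rose by 0.57 on the log2 scale (SE 0.15, limma adjusted p = 0.0013), and 23 of 24 tumours lay above the normal median.

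Psmb8 had signals between 612 (X25L) and 1862 (X6) in tumours with a median of 1347, against 601 (Young) to 2052 (NewN6) in normal glands with a median of 834. It rose by 0.43 (SE 0.14, limma adjusted p = 0.0103), with 23 tumours above the normal median. The brighter probe set of Tap1 had signals between 149 (X29.1) and 410 (X26) in tumours with a median of 252, against 138 (Young) to 501 (NewN6) in normal glands with a median of 152. It rose by 0.42 (SE 0.16, limma adjusted p = 0.0239), again with 23 tumours above the normal median. In all 3 genes the groups overlapped, and NewN6 lay above most tumours.

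Against the 8 normal glands other than NewN4, NewN6 and X27.1N, 23 tumours lay above all of them for Psmb8, 22 for Psmb9 and 21 for Tap1. The changes without those 3 glands were 0.67 for Psmb8, 0.79 for Psmb9 and 0.72 for Tap1. All were called by limma, with the largest adjusted p at 8.08e-05. Those 3 were the highest normal glands for all 3 genes, so leaving them out must enlarge the rises and such counts. With the leukocyte covariate they were 0.69, 0.83 and 0.83 in the same order and all called. Tap1 was not called against the 8 NewN glands alone (0.39, limma adjusted p = 0.0652). Its dimmer probe set lay at the floor in 14 tumours and all 11 normal glands, so no fold is given, and it was not called (limma adjusted p = 0.132), though it was called higher with a floor at the 5th percentile (0.34, limma adjusted p = 0.00374).

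Tap2 had signals between 65.3 (X29.1) and 300 (X9) in tumours with a median of 152, against 105 (Young) to 504 (NewN6) in normal glands with a median of 221. It fell by 0.57 (SE 0.19, limma adjusted p = 0.0113), and 22 of 24 tumours lay below the normal median. X28.1N, Young and X27.1N, at 139, 105 and 160, were the lowest normal glands, and the NewN glands lay between 205 and 504. The change was -0.41 (limma adjusted p = 0.0791) when X27.1N, NewN4 and NewN6 were left out, -0.38 (limma adjusted p = 0.13) with the leukocyte covariate, -0.84 (limma adjusted p = 0.000481) against the NewN glands alone, and -0.015 (limma adjusted p = 1) against X27.1N and X28.1N alone.

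B2m, the light chain shared by class I molecules, was read by a pair of probe sets. The brighter had signals between 5275 (X9) and 9194 (X18) in tumours with a median of 6837, against 5653 (X27.1N) to 7443 (X28.1N) in normal glands with a median of 6361. Its log2 change was 0.07 (SE 0.07, limma adjusted p = 0.427), with 6 tumours above and 4 below all normal glands. The dimmer had signals between 829 (X28) and 2230 (X2) in tumours with a median of 1613, against 1457 (Young) to 2870 (NewN6) in normal glands with a median of 2150. It fell by 0.45 (SE 0.12, limma adjusted p = 0.00236), with 10 tumours below all normal glands, but was not called under quantile normalization (-0.20, limma adjusted p = 0.156). Whether B2m is called lower therefore depends on the probe set read, and the brighter showed no clear change.

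Of 25 listed genes of class I loading, 20 were measured, of which 7 rose, 4 fell and 9 were not called, with a median of 0.17. Over all genes 31.4% were called higher and 27.5% lower. RT1-CE10, a class I heavy chain gene, had the largest rise (1.03, limma adjusted p = 4.75e-10). Its signal was 176 to 493 in tumours with a median of 239 and 94.5 to 184 in normal glands with a median of 122, and 23 tumours lay above all normal glands. RT1 class I genes are close copies of each other, so it is uncertain which copy such a probe set reads. Tapbp, which holds class I molecules at the transporter, rose by 0.39 (limma adjusted p = 0.00919), and the chaperone Calr by 0.22 (limma adjusted p = 0.0169). Fcgrt, an antibody receptor that also pairs with B2m, had the largest fall (-1.72, limma adjusted p = 7.38e-07), with all 24 tumours below every normal gland.

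Among 5 immunoproteasome genes Psmb8, Psmb9 and Psme2, part of the proteasome activator, rose, and 2 were not called. Psme2 changed by 0.35 (limma adjusted p = 0.00311), Psme1 by -0.16 (limma adjusted p = 0.075) and Psmb10 by 0.05 (limma adjusted p = 0.782). Both standard catalytic subunits measured fell, Psmb5 by 0.22 (limma adjusted p = 0.00816) and Psmb7 by 0.19 (limma adjusted p = 0.0255). Of 33 interferon response genes 7 rose, 1 fell and 25 were not called, with a median of 0.12, which is a lower share in each direction than over all genes (31.4% higher, 27.5% lower). Isg20, an antiviral nuclease, had the largest rise (1.62, limma adjusted p = 1.37e-10, all 24 tumours above every normal gland), and Ifngr1, the ligand-binding chain of the interferon gamma receptor, the fall (-0.55, limma adjusted p = 0.00211). Irf1, a transcription factor induced by interferon gamma, changed by -0.09 (limma adjusted p = 0.648).

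Tap2, Psmb8, Tap1 and Psmb9 are neighbours in that order in the RefSeq annotation of chromosome 20, between RT1-DOb and the RT1-DM genes. Tap1 and Psmb9 point away from each other, and their starts lie 457 bases apart. The core of the interferon response element, GAAANNGAAA, was searched on both strands and is set in capitals in the next 4 stretches, shown as the promoter feature shared by these members. The letters TTTC mark a match on the opposite strand.
Tap1, chr20:4668635-4668684, minus strand: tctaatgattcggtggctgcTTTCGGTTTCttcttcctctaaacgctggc
Tap2, chr20:4652308-4652357, minus strand: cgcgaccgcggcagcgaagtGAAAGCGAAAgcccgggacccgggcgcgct
Psmb8, chr20:4657006-4657055, minus strand: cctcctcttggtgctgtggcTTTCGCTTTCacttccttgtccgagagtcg
B2m, chr3:129549160-129549209, plus strand: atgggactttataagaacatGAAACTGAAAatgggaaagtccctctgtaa
Psmb9 held no match to that core in its window. The Tap1 match, 112 to 121 bases upstream of Tap1, lies between the starts of Tap1 and Psmb9 but beyond that window. The Y box core of Psmb9, 19 to 26 bases after its start, is in capitals here.
Psmb9, chr20:4668999-4669046, plus strand: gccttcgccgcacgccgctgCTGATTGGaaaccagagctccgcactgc
The stretches of Tap1, Tap2 and B2m lie upstream of the start, that of Psmb8 spans it, and that of Psmb9 begins 1 base before it. The interferon core was present in 4 of 9 member promoters and in 3.92% of all promoters. The gamma interferon activation core TTCNNNGAA was present only in Psmb8 among the members and in 8.87% of all promoters.

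Unequal change of 2 genes was tested by the log2 ratio of their signals on the same array, with a two-sided permutation of the array labels and adjustment over 9 ratios. The ratio itself compares different probe sets and has no meaning as a level, so only its difference between groups is read. Tap1 over Tap2 was -0.25 (X9) to 1.58 (X26) in tumours with a median of 0.85, against -0.72 (NewN2) to 0.74 (X27.1N) in normal glands with a median of -0.41. The difference was 0.99 (SE 0.17, 24 tumours and 11 normal glands), a 1.99-fold shift, with 14 tumours above all normal glands. Its permutation p was 1e-05, the smallest that 100000 permutations can give, and 4.5e-05 after adjustment. The difference was between 0.82 and 1.23 under the 8 alternatives tried, none of which kept only X27.1N and X28.1N as normal glands. The normal glands were unequal in this ratio. The 8 NewN glands lay between -0.72 and -0.0074, and only NewN6, at the upper end, reached into the tumour range. X28.1N (0.07), Young (0.39) and X27.1N (0.74) also lay among the tumours. NewN6 and X28.1N exceeded only the tumours X9 and X14. Against X27.1N and X28.1N alone Tap1 changed by 0.36 and Tap2 by -0.015, and neither was called by limma.

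Psmb8 over Psmb5, the inducible subunit over the one it replaces, was -0.96 to 0.52 in tumours with a median of -0.01, against -1.24 to 0.42 in normal glands with a median of -0.86. The difference was 0.65 (SE 0.16, adjusted permutation p = 0.00021), and 1 tumour lay above all normal glands because NewN6 was high. Psmb10 over Psmb7 differed by 0.25 and did not pass (adjusted permutation p = 0.0924), but it was 0.48 and passed when X27.1N, NewN4 and NewN6 were left out (adjusted permutation p = 0.000787). Tap1 over Psmb9, the neighbours that point away from each other, differed by -0.14 (adjusted permutation p = 0.177). It passed under quantile normalization (-0.38, adjusted permutation p = 0.00259). With the mean of all probe sets of a gene it was -0.31 (adjusted permutation p = 0.00814). That mean takes in the dim Tap1 probe set, at the floor in 14 tumours and all 11 normal glands. This shrinks the Tap1 rise, so the -0.31 is no separate evidence of an unequal change.

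**Figure D3:**
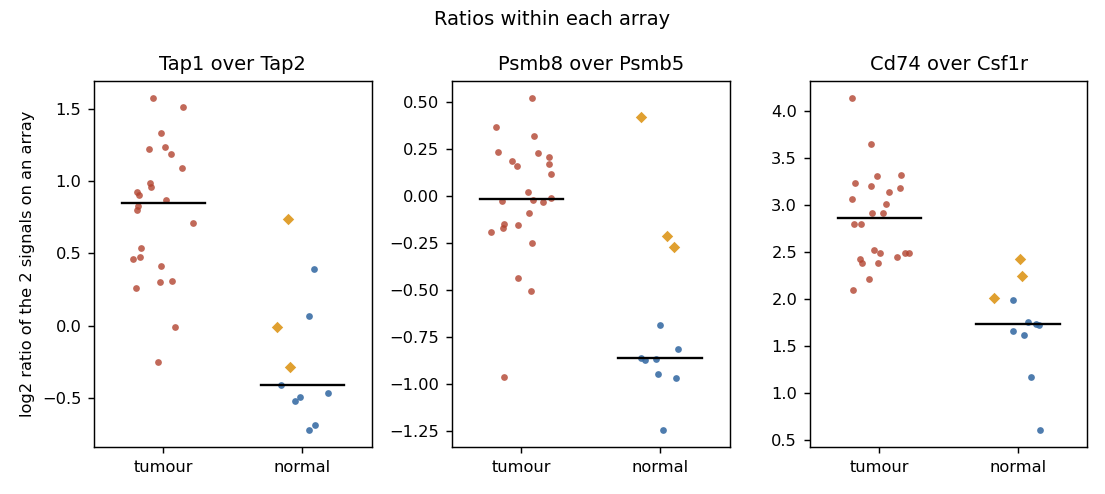
Log2 ratio of 2 signals on the same array for Tap1 over Tap2, Psmb8 over Psmb5 and Cd74 over Csf1r, with 1 point for each array, tumours on the left (24) and normal glands on the right (11), and a bar at each group's median. Diamonds mark NewN4, NewN6 and X27.1N. All 3 medians were higher in tumours, and 19 tumours lay above every normal gland for Cd74 over Csf1r.

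Within the class II group RT1-Db1 over Cd74 differed by -0.27 (SE 0.12, adjusted permutation p = 0.0278), with 7 tumours below all normal glands. This difference was -0.07 when X27.1N, NewN4 and NewN6 were left out (adjusted permutation p = 0.673). RT1-Bb over Cd74 (-0.22, adjusted permutation p = 0.0924) and RT1-Da over Cd74 (0.11, adjusted permutation p = 0.117) did not pass. RT1-Da over Cd74 passed without the 3 glands (0.18, adjusted permutation p = 0.0451).

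Cd74 was also set against markers of cells that use the class II pathway. Csf1r, the receptor that maintains macrophages, was 212 to 732 in tumours and 858 to 1107 in normal glands, so its groups did not overlap, whereas those of Cd74 did. Cd74 over Csf1r was 2.10 to 4.14 in tumours with a median of 2.86, against 0.60 to 2.43 in normal glands with a median of 1.74. The difference was 1.14 (SE 0.18), a 2.20-fold shift, with 19 tumours above all normal glands and an adjusted permutation p of 4.5e-05. Cd74 over Ptprc, the leukocyte antigen CD45, differed by 0.67 (SE 0.37) and did not pass (adjusted permutation p = 0.0506), though it passed without X22L (0.72, adjusted permutation p = 0.0355) and under quantile normalization (0.92, adjusted permutation p = 0.00331). The contrast depends on the marker. Of the 12 macrophage and dendritic cell markers 7 fell, 2 rose and 3 were not called by limma, and Csf1r had the largest fall (-1.64). Cd68 fell by 0.48 and Lyz2 changed by -0.49 without being called, against -0.51 for Cd74, while Aif1 (0.47) and Fcgr3a (0.82) rose.

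Across the 24 tumours correlations were highest among the 4 class II genes, intermediate among Tap1, Tap2, Psmb8 and Psmb9, and mostly lower between these sets and with B2m. One probe set for each gene was used, that with the highest mean, and correlations were tested by two-sided permutation with adjustment over 36 pairs, of which 14 were called. The 6 pairs among Cd74, RT1-Da, RT1-Db1 and RT1-Bb had Pearson r between 0.94 and 0.96, all called (adjusted permutation p = 6e-05 for each). RT1-Db1 and RT1-Bb were the closest (r = 0.96, Spearman rho = 0.93). Without the 2 tumours farthest from the median on the x axis these r lay between 0.93 and 0.96.

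The 6 pairs among Tap1, Tap2, Psmb8 and Psmb9 had r between 0.52 and 0.72, all called, and between 0.47 and 0.73 without the 2 farthest tumours. Psmb9 and Tap1 had r = 0.72 (rho = 0.74, adjusted permutation p = 0.000405), and Psmb8 and Tap2 also had r = 0.72 (rho = 0.64, adjusted permutation p = 0.00044). Tap1 and Tap2 had r = 0.52 (rho = 0.44, adjusted permutation p = 0.0258, and 0.0759 for rho), and this was not called without X25R and X29.2 (0.49, adjusted permutation p = 0.051). Tap2 with Psmb9 (r = 0.59) was not called under quantile normalization (0.40, adjusted permutation p = 0.108).

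Between the class II genes and the Tap and proteasome genes the 16 pairs had r between 0.18 and 0.57, and 2 were called, Cd74 with Tap1 (r = 0.57, rho = 0.54, adjusted permutation p = 0.0116) and Cd74 with Psmb8 (r = 0.48, rho = 0.50, adjusted permutation p = 0.0437). Cd74 with Psmb8 was not called under any of the 3 alternatives tried. The 8 pairs with B2m had r between -0.08 and 0.35 and 0 were called by permutation. A pair that was not called is not shown to be unrelated at this number of tumours.

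**Figure D4:**
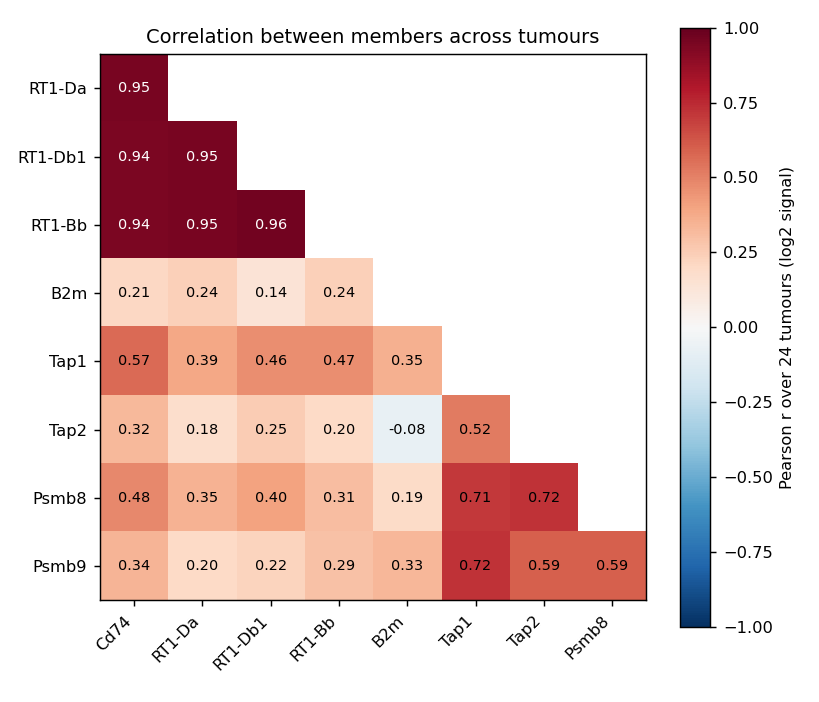
Pearson r between the log2 signals of each pair of the 9 genes over 24 tumours, on a colour scale that runs between -1 and 1. The 6 class II pairs reach 0.94 to 0.96, the 6 pairs among Tap1, Tap2, Psmb8 and Psmb9 reach 0.52 to 0.72, and the pairs with B2m lie between -0.08 and 0.35.

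Individual tumours combined the genes in different ways. X18 was high in both sets, with the highest Cd74 (5306) and, after X26, the highest Psmb9 (1780) and Tap1 (393), while its Ptprc was 81.1 and its Csf1r 301. X15, the highest tumour for RT1-Da, RT1-Db1 and RT1-Bb, had Psmb9 at 1199 and Tap1 at 240, near the tumour medians, with Ptprc at 256, Cd3g at 241 and Csf1r at 663. X20, the lowest for Cd74, RT1-Da and RT1-Db1, had Psmb9 at 1644, among the highest tumours. Its Psmb8 (965), Tap1 (247) and Tap2 (141) lay below the tumour medians of 1347, 252 and 152. Its B2m probe sets, at 7665 and 1080, lay above and below their tumour medians of 6837 and 1613. Some tumours share a title number, which the labels do not explain. X25L and X25R had Cd74 at 2363 and 2382 but Psmb8 at 612 and 1500, Tap2 at 70.8 and 183, and the dimmer B2m probe set at 981 and 1795.

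**Figure D5:**
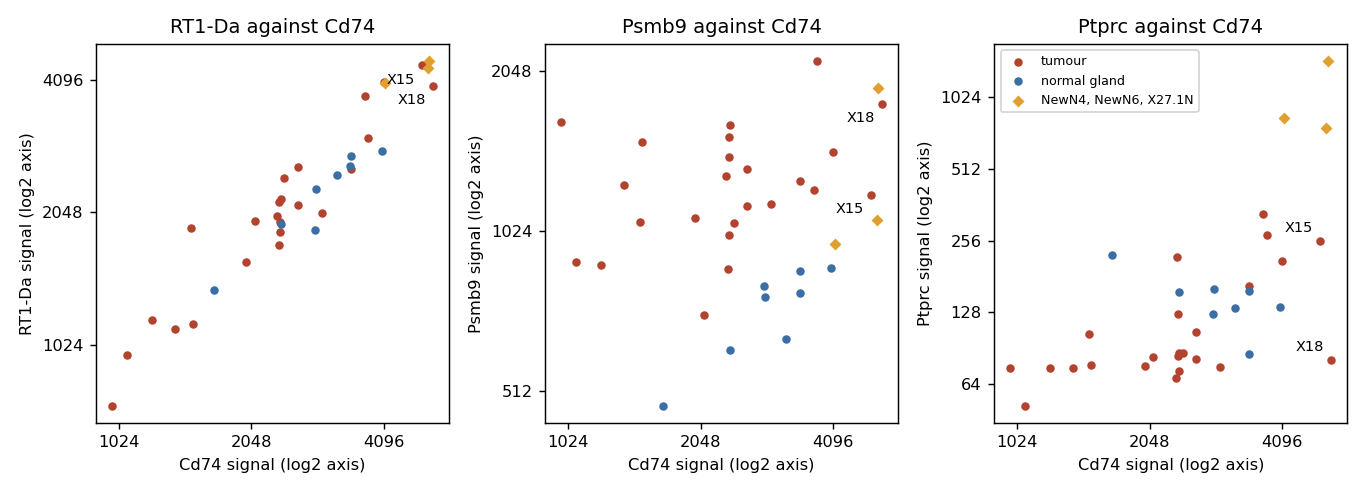
Signal of RT1-Da, Psmb9 and Ptprc against that of Cd74 on log2 axes, with 1 point for each of the 24 tumours, the 8 other normal glands, and NewN4, NewN6 and X27.1N (diamonds). RT1-Da follows Cd74 closely, Psmb9 is spread widely at any Cd74 signal, and X18 combines the highest Cd74 (5306) with a Ptprc of 81.1.

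Marker genes were related to Cd74 and Psmb9 over the same tumours, in 20 pairs of which 6 were called. Cd74 went with Csf1r (r = 0.67, rho = 0.73, adjusted permutation p = 0.0028), Irf8, a transcription factor of myeloid and B cells (r = 0.67, rho = 0.72, adjusted permutation p = 0.0028), and Ptprc (r = 0.63, rho = 0.63, adjusted permutation p = 0.00673). Without the 2 farthest tumours these r were 0.73, 0.79 and 0.74. Cd74 also went with Cd3d (r = 0.58, adjusted permutation p = 0.0115), which lay at the floor in 18 tumours, and with the macrophage marker Cd68 (r = 0.54, adjusted permutation p = 0.0171), though its rho of 0.47 did not pass (adjusted permutation p = 0.0682). Cd74 with Ciita (r = 0.40, adjusted permutation p = 0.131), with Irf1 (r = 0.42, adjusted permutation p = 0.112) and with the epithelial keratin Krt8 (r = -0.20, adjusted permutation p = 0.519) did not pass. Psmb9 went with Irf1 (r = 0.56, rho = 0.58, adjusted permutation p = 0.0171, not called without X25R and X29.2) and with none of the other markers tested, Ptprc (r = 0.14) and Csf1r (r = -0.02) included. Whether the number of leukocytes in a tumour accounts for its class II signal was not tested.

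Over 10262 genes ranked by Pearson r with Cd74 across the 24 tumours, members included, the first were RT1-Da (0.95), RT1-Db1 (0.94), RT1-Bb (0.94), RT1-Ba (0.94), RT1-DMb (0.84), the protease Ctss (0.80), Cd3g (0.79), the leukocyte actin regulator Coro1a (0.74), Laptm5 (0.73), a lysosomal protein of blood cells, and the interleukin receptor chain Il2rb (0.72). The same ranking for Psmb9 gave Psme2 (0.76), Tap1 (0.72), Stmn1 (0.72), a regulator of microtubules, Timeless (0.72), which acts at replication forks, the DNA repair scaffold Xrcc1 (0.71), Trnau1ap (0.71), the glycolytic enzyme Pfkp (0.70), the chromatin protein Hmgn1 (0.69), the splicing factor Snrnp70 (0.68) and Tubgcp2 (0.68), part of the gamma-tubulin complex. The 5 genes nearest to Cd74 all belong to the class II pathway. Of the 10 nearest to Psmb9, Psme2 and Tap1 belong to the class I lists, and 4 were called higher in tumours, namely Psme2 (0.35), Tap1 (0.42), Stmn1 (0.88) and Tubgcp2 (0.18), against 31.4% of all genes.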

How the data were processed

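The deposited table holds 1 intensity on a linear scale for each probe set and array. How the authors computed it (software, background, scaling) is not given in the sources used here. No value lies below 1. The deposited scaling was kept, 57 control probe sets were left out of the 15923, signals below 41.6, the 10th percentile over the table, were raised to that floor, and log2 was taken. Symbols came from GEO's platform annotation, in which 12783 probe sets carry 1 symbol, 312 several and 2771 none, and 12748 Entrez identifiers matched RefSeq (GRCr8) with 0 symbols changed. Genes outside the members were read by their brightest probe set.

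Tumours and normal glands, grouped by label, were compared in R 4.3.3 by limma 3.58.1 (functions lmFit and eBayes, trend = TRUE and robust = TRUE, no covariate) over all 15866 probe sets, with Benjamini-Hochberg adjustment and a threshold of 0.05. Log2 changes are tumour minus normal. Ratios and correlations were tested with 100000 permutations in Python 3.11.15 with numpy 2.4.6, and the ranks for Spearman rho came from scipy 1.17.1. Procedures were tested on simulated data. Figures were drawn with matplotlib 3.10.9. A ratio of Psmb9 to Psmb6 was planned and not run, since Psmb6 had no named probe set, and Cd79b was left out of the correlations because it lay at the floor in all tumours.

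All member probe sets are named. Other genes are the planned partners and markers, the called gene with the largest rise and fall in each pathway list, and the 10 genes most correlated with Cd74 and with Psmb9, and some list members were added after their values were seen. The members and lists were chosen with earlier results of these data known. Alternatives covered the floor, the array scaling, a filter on dim probe sets, the variance model, the normal glands and tumours used, title numbers as a block and a leukocyte covariate.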

Additional observations from a re-analysis of the deposited data

How the results depend on the processing

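Psmb8, Psmb9 and the brighter probe set of Tap1 were called higher by limma under each alternative except those with X27.1N and X28.1N as the only normal glands and, for Tap1, that with the NewN glands alone. The brighter probe sets of RT1-Db1 and RT1-Bb were called lower under 12 alternatives each, and Cd74 under 9. RT1-Db1 lost its call under 5. RT1-Bb lost it under 4 and turned sign under 1, and Cd74 lost it under 7 and turned sign under 1. These counts take in the fixed block of title numbers described below, which rests on very few arrays and could hardly call anything. Cd74 turned sign in that fit. Quantile normalization gave 5 member probe sets called, 2 of them lower, and 8721 of all 15866 probe sets. Of the floors, the 5th percentile and log2(value + 16) without a floor gave 5 called higher each. Both added the dim probe sets of RT1-Bb and Tap1. Each gave 10 members called, against 9531 and 9656 of all probe sets in that order. With X27.1N, NewN4 and NewN6 left out, 4 members were called, 1 of them lower, against 8823 of all probe sets. The dimmer probe set of RT1-Db1 was then at 0.0059. With the leukocyte covariate 4 members were called, 1 lower, against 8430 of all probe sets. RT1-Bb was then at 0.028 and RT1-Da at 0.13. Against X27.1N and X28.1N alone, 1366 of all probe sets, 4 of the pathway lists and 1 member were called, 0 higher and 1 lower.

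The titles share numbers, but the labels state no pairing. Arrays with the same number correlated in their deviations by 0.19 (X27) and 0.25 (X28), against 0.11 and 0.24 when crossed. With the number as a fixed replicate block by limma over X27, X27.1N, X28 and X28.1N, 0 of all probe sets were called. That took in 0 of the pathway lists and 0 members, 0 higher and 0 lower. So few arrays left that fit almost no room to call anything, so the missing calls say nothing about the changes. Cd74 was then at 0.0071, RT1-Da at 0.17 and the brighter B2m probe set at -0.067. As a random block over all arrays (consensus correlation 0.324) it ended the call of Cd74 alone among the members (-0.46, adjusted p = 0.053). Cd74 was also not called with a floor at the 20th percentile (adjusted p = 0.0509) or without X25R and X29.2 (adjusted p = 0.0594).

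With X27.1N, NewN4 and NewN6 left out, Psmb10 over Psmb7 was 0.48, RT1-Da over Cd74 0.18, RT1-Db1 over Cd74 -0.069 and RT1-Bb over Cd74 0.0199. Against the NewN glands alone RT1-Db1 over Cd74 was -0.23. With the mean of all probe sets of a gene, RT1-Db1 over Cd74 was 0.0033 and RT1-Bb over Cd74 0.17. Tap1 over Psmb9 was then -0.31 and Cd74 over Ptprc 0.77. For RT1-Db1, RT1-Bb and Tap1 this mean takes in a dim probe set mostly at the floor, which shrinks the change of the gene. Under quantile normalization Tap1 over Psmb9 was -0.38 and Cd74 over Ptprc 0.92, and without X22L Cd74 over Ptprc was 0.72. The causes were not tested. Of 168 repeated correlations 157 kept their direction and side of the threshold, 8 lost their call and 3 turned sign under quantile normalization (B2m with Tap2 at 0.043, Psmb9 with Cd68 at -0.086 and with Ciita at 0.049).

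Probe sets at the floor carry no order below it, and the deposited table gives no detection calls.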

Other observations

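The interferon-linked genes were not uniform among tumours. Mx2, an antiviral GTPase, had signals between 206 and 3138 in tumours with a median of 767, against 351 to 2121 in normal glands with a median of 508, and its log2 change of 0.38 did not pass (limma adjusted p = 0.365). Oas1a, a sensor of viral RNA, rose by 0.66 (limma adjusted p = 0.00602), with 11 tumours above all normal glands. Bst2, a protein that tethers viruses to the cell surface, rose by 0.54 (limma adjusted p = 0.00648), with 12 tumours above all normal glands. The chemokines Cxcl9 and Cxcl10, both induced by interferon gamma, changed by 0.12 and -0.04 and did not pass (limma adjusted p = 0.845 and 0.917). Cxcl9 was 26.6 to 1103 in tumours and 99.7 to 1530 in normal glands. Over all genes 31.4% were called higher. These genes were picked as examples after their values were seen.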
